A study of Oryctolagus cuniculus with 4 samples.

Results

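Adipocyte and lipid storage genes were described in 4 intact semitendinosus tendons of New Zealand White rabbits, 1 tendon from each of 4 females aged 193 days. The semitendinosus tendon is a hamstring tendon used as a graft in knee ligament reconstruction. All 4 were whole tendons described as intact, with surface muscle scraped away before freezing; they form 1 group, without a treated or control group. The 10 genes chosen by symbol were ADIPOQ, LPL, CIDEC, GPD1, DGAT2, PLIN1, FABP4, LIPE, PNPLA2 and PPARG. Of these, 8 had an entry among the 20294 genes of the count table, each with 1 transcript, and PLIN1 and PNPLA2 had none under those symbols. The choice rested on known function and on the spread between tendons seen earlier in the same data, a steady ADIPOQ beside variable lipid enzymes. That contrast is therefore given here as a description, with no test.

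White adipocytes store energy as triglyceride in a large lipid droplet. Fatty acids are freed from circulating lipoproteins by lipoprotein lipase (LPL), carried inside the cell by the binding protein FABP4, and joined to a glycerol backbone that the enzyme GPD1 helps to supply. DGAT2 adds the last fatty acid, CIDEC lets small droplets fuse into large ones, hormone-sensitive lipase (LIPE) releases fatty acids again, and the nuclear receptor PPARG switches the programme on. Adiponectin (ADIPOQ) is a hormone secreted by adipocytes. In and around tendons, adipocytes are found in the loose sheath tissue and fat pads, and between the fibres of attached muscle.

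Levels are given in TPM, a unit that divides each count by transcript length and then brings all tendons to 1 common total. Libraries held between 19759696 and 30646052 estimated counts, and no pair of libraries agreed within counting noise. Of the 5 symbols fixed as adipocyte markers, ADIPOQ, CIDEC, LIPE and LEP (leptin) were detected in every tendon, and PLIN1 had no entry. In whole tissue, fewer cells of a type and less RNA per cell cannot be told apart. Each animal gave 1 tendon, so the animal, the dissection and the library cannot be told apart either.

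The 8 genes together took 0.0685% ± 0.0494 of TPM (SD, n = 4). Their share was 0.0277% in tendon 1, 0.04596% in tendon 2, 0.0608% in tendon 3 and 0.140% in tendon 4. All 8 were highest in tendon 4, as were 32.3% of the 12786 genes whose mean was 1 TPM or more, and 7 of 8 were lowest in tendon 1, as were 23.9% of those genes. The spread between tendons differed widely among the 8. In 6 of 8 (LPL, CIDEC, GPD1, DGAT2, FABP4 and PPARG), the highest tendon was at least 4-fold above the lowest, against 5.01% of all genes tested. Because the spread helped to choose the genes, nothing is read from these counts. Without tendon 4, CIDEC alone of the 8 passed 4-fold, against 2.27% of 12637 genes.

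**Figure D1:**
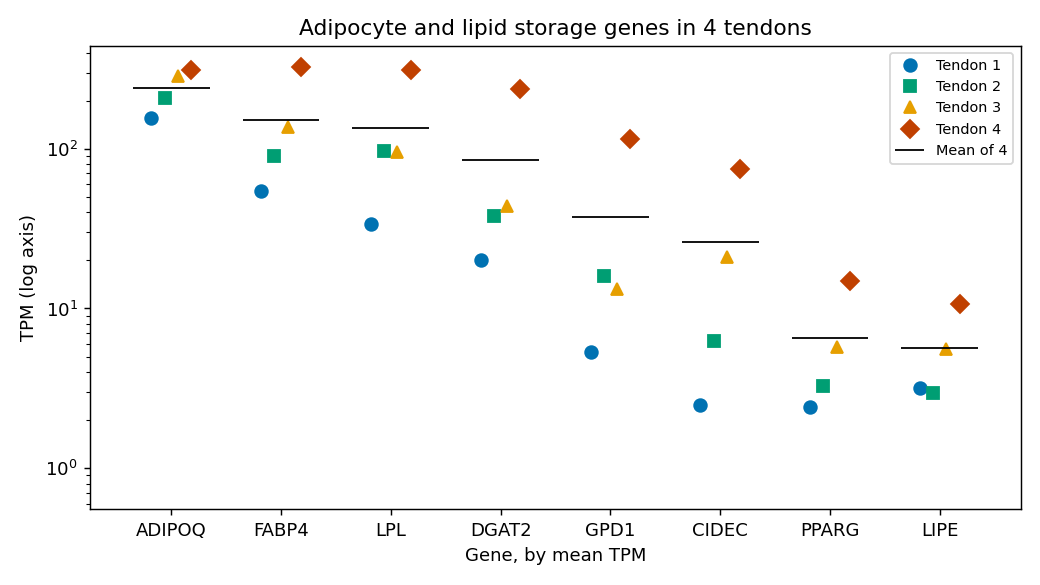
TPM on a log axis of the 8 genes in tendons 1 to 4 (symbols), with the mean of 4 as a line, ordered by mean TPM. Tendon 4 is highest for each gene, and the points of ADIPOQ span 155 to 309 TPM while those of CIDEC span 2.48 to 74.8 TPM.

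The hormone gene ADIPOQ (ENSOCUG00000026268.2, OryCun2.0 chromosome 14, 82535615 to 82547883) was the most abundant of the 8. It had 155, 207, 285 and 309 TPM in tendons 1 to 4, a mean of 239 ± 70.9 TPM (SD, n = 4). Tendons 3 and 4 were close to each other and tendon 1 was low, and the highest was 1.99-fold above the lowest. With 6487 to 21742 estimated counts per tendon, counting error was small: the exact Poisson 95% interval, which covers counting error only, was 151 to 159 TPM in tendon 1 and 305 to 313 TPM in tendon 4. Steady is a relative term here. The SD of log2(TPM + 1) was 0.45 for ADIPOQ, higher than in 86.4% of those 12786 genes, for which the median SD was 0.22 and the median ratio of highest to lowest tendon 1.44. Among the 8 genes its SD was the lowest, and the other 7 ranged from 0.73 for LIPE to 1.94 for CIDEC. Without tendon 4 the SD was 0.44 for ADIPOQ and 0.41 for LIPE. For a scarce gene such as LIPE this SD depends on the value added before taking logs. Over 4 tendons it was 0.85 for LIPE with 0.1 added and 0.46 with 5 added. By the ratio of highest to lowest among tendons 1 to 3, ADIPOQ still spanned the least of the 8, 1.84-fold against 1.90-fold for LIPE.

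**Figure D2:**
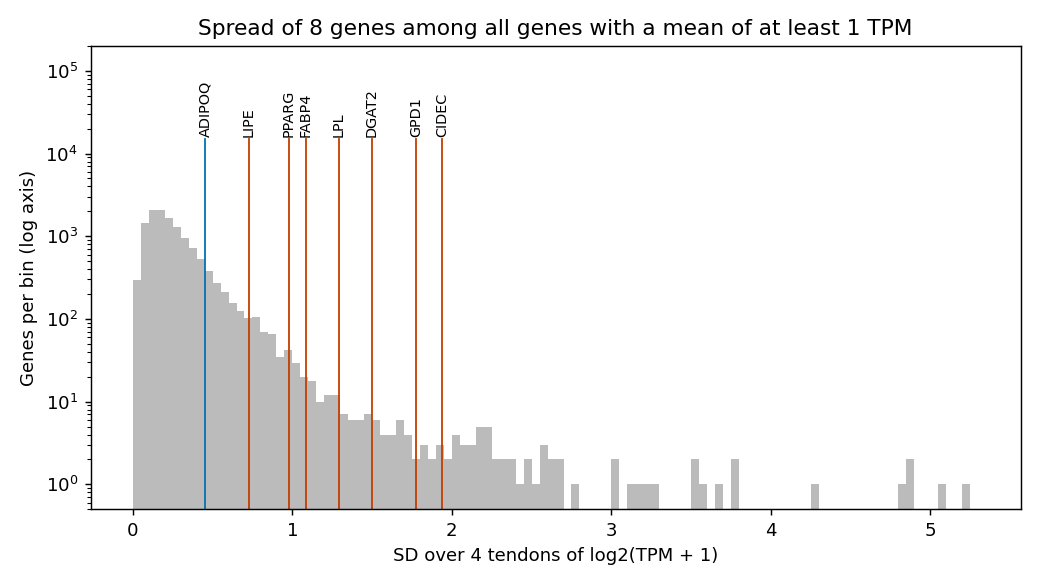
Histogram (log axis) of the SD over 4 tendons of log2(TPM + 1) for 12786 genes whose mean was 1 TPM or more, with the 8 genes as vertical lines. ADIPOQ lies at 0.45, right of the bulk of genes, and CIDEC at 1.94 lies farthest right of the 8.

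Genes for taking up and carrying fatty acids came next in level. FABP4 (ENSOCUG00000015483.3, chromosome 3, 97154441 to 97159847) was measured at 54.6, 89.5, 138 and 325 TPM in tendons 1 to 4, a mean of 152 ± 120 TPM (SD, n = 4). The tendons ranked in the same order as for ADIPOQ, over a 5.96-fold range, with tendon 4 well above the rest. FABP4 is also expressed by capillary endothelium. LPL (ENSOCUG00000008236.3, chromosome 15, 4553775 to 4582889), which skeletal muscle also makes, had 34.01, 96.5, 95.9 and 312 TPM, a mean of 135 ± 122 TPM. Tendon 4 stood 3.23-fold above the next tendon for LPL. Tendons 2 and 3 did not differ beyond counting error, with intervals of 94.2 to 98.8 and 93.5 to 98.3 TPM. Over tendons 1 to 3, LPL still spanned 2.84-fold and FABP4 2.52-fold.

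Among the 8 genes, those of triglyceride synthesis were set apart by tendon 4. DGAT2 (ENSOCUG00000014223.2, chromosome 1, 140990760 to 141018019) stood at 20.03, 37.8, 43.8 and 237 TPM in tendons 1 to 4. Tendon 4 was 5.41-fold above the next tendon, whereas tendons 1 to 3 spanned 2.19-fold. GPD1 (ENSOCUG00000015728.3, chromosome 4, 34260252 to 34265000), also abundant in fast glycolytic muscle, had 5.33, 15.97, 13.2 and 115 TPM. For this gene tendon 4 was 7.18-fold above the next tendon, the widest such step among the 8, and tendons 1 to 3 spanned 2.996-fold. The counting intervals of tendons 2 and 3 overlapped (14.2 to 17.9 and 11.5 to 15.1 TPM). GPD1 and DGAT2 shared the shape of a single high tendon, and their log2 profiles, each centred on its own mean, differed by 0.30 (root mean square over 4 tendons).

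The droplet fusion gene CIDEC (ENSOCUG00000005302.2, scaffold GL018802, 334730 to 336651) had the widest range of TPM. It had 2.48, 6.24, 20.9 and 74.8 TPM in tendons 1 to 4, a 30.2-fold range. All 4 tendons stood clear of one another: tendon 2 was 2.52-fold above tendon 1, tendon 3 was 3.35-fold above tendon 2 and tendon 4 was 3.58-fold above tendon 3. By SD on the log2 scale with 1 added, CIDEC came first in TPM (1.94, against 1.78 for GPD1) and second in TMM-normalised counts (1.61, against 1.71 for GPD1). This order depended on the value added before taking logs. In TPM, CIDEC was first with 0.1 added (2.11, against 1.85 for GPD1) and second with 5 added (1.51, against 1.53). Tendon 1 held only 13 estimated counts of CIDEC, with a counting interval of 1.32 to 4.24 TPM that did not reach the 4.71 to 8.10 TPM of tendon 2. The annotated CIDEC transcript is short, 525 bases, so its TPM rest on few counts, up to 660 in tendon 4.

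The lipase and the nuclear receptor were scarce. LIPE (ENSOCUG00000000017.3, scaffold GL018789, 275658 to 295895) was measured at 3.18, 2.94, 5.60 and 10.7 TPM in tendons 1 to 4. It was the 1 gene of the 8 that was not lowest in tendon 1, but the counting intervals of tendons 1 and 2 overlapped (2.77 to 3.65 and 2.63 to 3.28 TPM). PPARG (ENSOCUG00000013194.3, chromosome 9, 11495298 to 11632637) had 2.43, 3.26, 5.72 and 14.9 TPM, a 6.12-fold range, from 51 to 525 estimated counts. Its counting intervals in tendons 1 and 2 also overlapped (1.81 to 3.19 and 2.69 to 3.90 TPM). PPARG and FABP4, a well-known target of this receptor, had the closest pair of profiles among the 8, with a root mean square difference of 0.16 on the centred log2 scale.

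In order of mean TPM the 8 genes stood as ADIPOQ, FABP4, LPL, DGAT2, GPD1, CIDEC, PPARG and LIPE, and several neighbours in that order changed places between tendons. FABP4 was below LPL in tendon 2 and above it in the other 3, by 1.04- to 1.60-fold. CIDEC was above GPD1 in tendon 3 and below it elsewhere. PPARG and LIPE did not differ beyond their spread, with a mean log2 ratio of 0.06 ± 0.36 (SD, n = 4). LPL was above DGAT2, and DGAT2 above GPD1, in 4 of 4 tendons.

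Set against ADIPOQ within the same tendon, the lipid genes did not keep a fixed proportion. LPL stood at 21.9%, 46.5%, 33.6% and 101% of ADIPOQ TPM in tendons 1 to 4. DGAT2 kept between 12.9% and 18.2% in tendons 1 to 3 and reached 76.5% in tendon 4. GPD1 stood at 3.44%, 7.70%, 4.62% and 37.1%. For CIDEC the values were 1.60%, 3.01%, 7.34% and 24.2%, a 15.1-fold range, of which 4.59-fold lay within tendons 1 to 3. FABP4 and PPARG spanned only 1.37- and 1.28-fold relative to ADIPOQ within tendons 1 to 3, from 35.2% to 48.3% and from 1.57% to 2.01%. In tendon 4 they stood at 105% and 4.81%. DGAT2 and LIPE were nearly as narrow within tendons 1 to 3, at 1.41- and 1.45-fold. LIPE stood at 2.05%, 1.42%, 1.97% and 3.47% in tendons 1 to 4, and its 2.45-fold range was the smallest of the 7 over all 4 tendons. ADIPOQ alone made up 55.96% of the summed TPM of the 8 genes in tendon 1 and 22.1% in tendon 4.

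**Figure D3:**
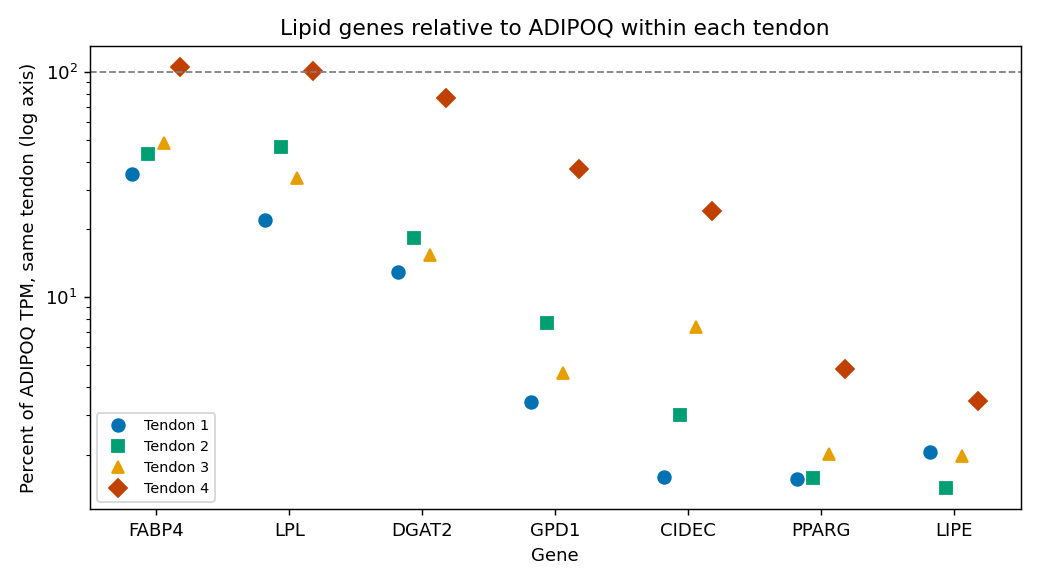
TPM of 7 lipid genes as percent of ADIPOQ TPM in the same tendon (log axis), with symbols for tendons 1 to 4 and a dashed line at 100%. Tendon 4 is highest for each gene, and FABP4 and LPL reach the line there.

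Levels were also compared with related genes within each tendon. The choice of genes did not use the level relative to a partner, but it did use the spread between tendons. How these ratios change from tendon to tendon is therefore a description only. Of 12 pairs listed, 5 had both genes in the table, and the exact two-sided sign-flip permutation test has 16 sign patterns with 4 tendons, so the smallest p it can give is 2 of 16. FABP4 exceeded FABP3, the fatty acid binding protein of muscle, 1.44-, 1.29-, 2.29- and 13.5-fold in tendons 1 to 4 (mean log2 ratio 1.44 ± 1.55, SD, n = 4; 2 of 16 sign patterns as extreme in the exact permutation test, adjusted p = 0.3125). That mean was 0.69 without tendon 4 and 0.43 without length correction (exact permutation p = 0.875), where FABP4 had fewer counts than FABP3 in tendons 1 (922 against 1306) and 2 (2588 against 4090). PPARG was below its family member PPARA in 4 of 4 tendons, at 0.138, 0.123, 0.237 and 0.680 times (mean log2 ratio -1.89 ± 0.97; again 2 of 16 sign patterns in the exact permutation test, adjusted p = 0.3125). Against PPARD, PPARG was below in tendons 1 to 3 and 1.11 times in tendon 4 (mean log2 ratio -1.26, or -2.66 without length correction; exact permutation p = 0.25, adjusted p = 0.417). CIDEC was at 0.0859, 0.225, 0.672 and 1.99 times PLIN2, the droplet coat protein found in most cell types (mean log2 ratio -1.17, -1.88 without tendon 4 and -2.58 without length correction; exact permutation p = 0.375, adjusted p = 0.469). PLIN2 itself lay between 27.8 and 37.6 TPM. GPD1 was at 0.440, 0.931 and 0.868 times its paralogue GPD1L in tendons 1 to 3 and 7.55 times in tendon 4 (exact permutation p = 1, adjusted p = 1). The mean log2 ratio of GPD1 to GPD1L was 0.37 and turned to -0.45 without tendon 4 and to -1.69 without length correction. None of the 5 comparisons passed an adjusted p of 0.05, and none could, since the smallest possible p was 2 of 16.

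Beyond the 10 symbols, 102 further symbols of lipid storage and adipocyte regulation were listed, of which 77 had an entry and 64 a mean of at least 1 TPM. Of these 64, 7 (10.9%) had a highest tendon at least 4-fold above the lowest, against 5.01% of all genes tested, and 27 (42.2%) were highest in tendon 4, against 32.3%. Their median ratio of highest to lowest tendon was 1.54, against 1.44 over all genes tested, and 43 of 64 stayed under 2-fold. The 7 past 4-fold were LEP, GPAT3, PCK1, CIDEA, PRKAR2B, ELOVL6 and THRSP, and all of them but GPAT3 were highest in tendon 4. Both conditions together were thus met by 6 of 64, against 3.19% of all genes tested. The lists, too, were chosen with earlier results of these data known, so these shares are a description only. Without tendon 4, 3 of 64 reached 4-fold (PCK1, THRSP and GPAT3), against 2.27% of 12637 genes.

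Among adipokines, LEP (leptin) had 0.767, 0.707, 2.66 and 6.92 TPM in tendons 1 to 4, a 9.79-fold range. The carrier protein gene RBP4, which many tissues express, had 228 TPM on average, close to the mean of ADIPOQ, and spanned 1.40-fold with its highest value in tendon 1. APLN (apelin) spanned 1.98-fold and NAMPT 1.40-fold. RETN (resistin) had 0 counts in tendons 1 to 3 and 1 in tendon 4. The adiponectin receptor gene ADIPOR2 lay between 31.3 and 44.7 TPM.

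Of the triglyceride synthesis list, 11 genes outside the 10 symbols were measured at a mean of at least 1 TPM. Past 4-fold were 2 of these 11, against 5.01% of all genes tested, and 3 of 11 were highest in tendon 4, against 32.3%. PCK1, which makes glycerol precursors from non-sugar sources in fat, had 0.253, 0.937, 4.95 and 16.7 TPM in tendons 1 to 4. Its 66.1-fold range rests on 6 estimated counts in tendon 1. GPAT3, an enzyme of the first acylation step, had 7.60 TPM in tendon 1 and its highest value, 31.1 TPM, in tendon 2. The more abundant GPAT4, AGPAT1 and AGPAT5, which act at the first steps of glycerolipid synthesis in many cells, had means of 89.1, 53.8 and 32.3 TPM and spanned 1.31-, 1.08- and 1.17-fold. LPIN2, a phosphatidate phosphatase gene, had 27.7 TPM and spanned 1.62-fold.

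Droplet proteins were also divided. CIDEA, the close relative of CIDEC, had 3.93, 5.05, 14.3 and 28.5 TPM in tendons 1 to 4, a 7.23-fold range with the same order of tendons as CIDEC. CIDEA is a known gene of thermogenic fat, but UCP1, the uncoupling protein that defines such fat, had 2, 4, 1 and 6 estimated counts. The caveola genes CAVIN1 and CAV1, active in adipocytes and in many stromal cells, had 860 and 219.7 TPM and spanned 1.26- and 1.24-fold. BSCL2 (seipin), needed to form droplets, had 111 TPM and spanned 1.14-fold.

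In the lipolysis list, 1 gene of 7 outside the 10 symbols passed 4-fold, against 5.01% of all genes tested. It was PRKAR2B, a regulatory kinase subunit gene, with 2.61, 4.02, 7.48 and 26.8 TPM in tendons 1 to 4. MGLL, the lipase of the last step, had 55.0 TPM and spanned 1.60-fold, and G0S2, an inhibitor of triglyceride lipase, spanned 2.75-fold. For fatty acid synthesis, 2 of 8 passed, beside the same 5.01%. THRSP, a lipogenic regulator of fat and liver, had 0.884, 4.13, 5.91 and 47.6 TPM, from 4 estimated counts in tendon 1 to 362 in tendon 4. ELOVL6, a fatty acid elongase gene, had 1.95, 3.02, 2.54 and 10.8 TPM. ACLY and SLC25A1, which supply acetyl units in the cytosol, had 55.3 and 62.9 TPM and spanned 1.29- and 1.43-fold. In the uptake and transport list, 0 of 8 further genes passed, again beside 5.01%. CD36, a fatty acid receptor gene, came nearest at 27.3, 47.1, 50.9 and 101 TPM.

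Of the adipogenic regulators besides PPARG, 0 of 8 measured passed 4-fold, against 5.01% of all genes tested. Their median ratio of highest to lowest tendon was 1.42, against 1.44 over all genes tested. CEBPB, an early adipogenic transcription factor that is broadly expressed, had 45.6 TPM and spanned 1.17-fold, and EBF1 27.5 TPM and 2.05-fold. In the insulin response list, 0 of 7 passed, beside the same 5.01%, and INSR, the insulin receptor gene, lay between 21.98 and 23.8 TPM. At that share, lists this short can well hold 0 such genes, so nothing is read from these counts.

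**Figure D4:**
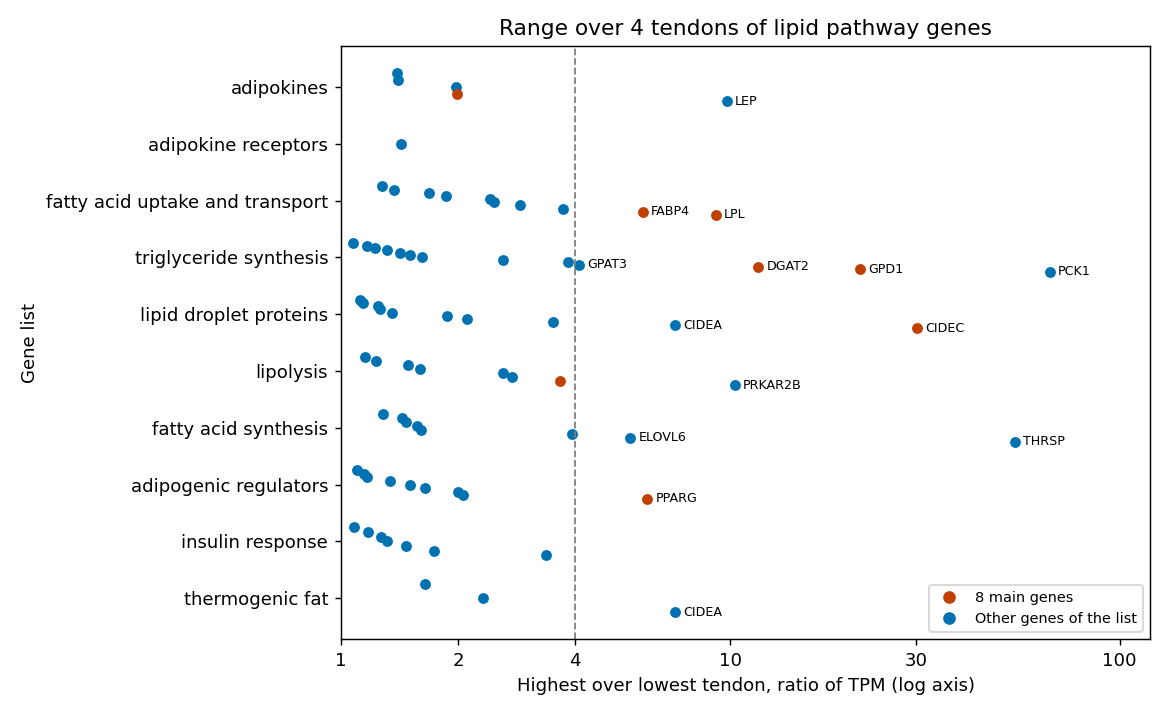
Ratio of highest to lowest tendon in TPM (log axis) for the genes of 10 lipid gene lists whose mean was 1 TPM or more. Orange points are the 8 main genes and blue points the other genes; names are given from 4-fold (dashed line) upwards, and CIDEA appears in both the droplet and the thermogenic list.

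The genes with the profile most like that of CIDEC and of ADIPOQ were sought among 7002 named genes whose mean was 10 TPM or more, by the root mean square difference of centred log2(TPM + 1) over the 4 tendons. The 6 nearest to CIDEC were CHRNG (0.28), THRSP (0.45), HLA-DRA (0.47), LUM (0.48), CD74 (0.49) and TNNT2 (0.52). CHRNG is the fetal subunit of the muscle acetylcholine receptor, HLA-DRA and CD74 serve antigen presentation, LUM is a matrix proteoglycan and TNNT2 a troponin of heart and immature muscle. CHRNG had 1.29, 3.66, 7.85 and 42.2 TPM in tendons 1 to 4, and HLA-DRA 21.5, 42.7, 62.5 and 311 TPM. The 6 genes are thus known from several cell types. Only 5 genes came within 0.5 of CIDEC.

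For ADIPOQ, 13 genes came within 0.1. Among the nearest were SCARB1 (0.02), P4HA2 (0.05), TM6SF1 (0.05), CD93 (0.06) and STOM (0.06). SCARB1, the receptor for high-density lipoprotein, had 37.7, 49.1, 66.96 and 75.3 TPM in tendons 1 to 4, a 1.997-fold range beside the 1.99-fold range of ADIPOQ. CD93, an endothelial surface receptor, had 27.3, 39.1, 50.4 and 52.4 TPM. P4HA2 encodes a collagen prolyl hydroxylase subunit. With a narrow profile more genes come near by this measure, and the median difference of all 7002 genes was 0.43 from ADIPOQ and 1.69 from CIDEC.

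Among markers of other cell types, those of fast fibres and macrophages were mostly highest in tendon 4. Of slow fibre, endothelial and tenocyte genes, 0 of 6, 3 of 9 and 2 of 7 were highest there, beside 32.3% of all genes tested. The endothelial and tenocyte counts were thus near the share of all genes. The 8 fast fibre genes found of 10 summed to 17.6, 80.6, 23.4 and 2388 TPM in tendons 1 to 4. Of those whose mean was 1 TPM or more, 7 of 7 were highest in tendon 4, beside 32.3% of all genes tested. MYH1, MYH2 and TNNT3 reached that mean only through tendon 4, with at most 0.893, 1.01 and 0.968 TPM in tendons 1 to 3. For these genes the filter fixed the highest tendon, so the count is a description only. The 11 macrophage genes of 11 summed to 99.6, 80.9, 193 and 262 TPM, and 10 of 11 were highest in tendon 4, beside the same 32.3%. The 6 slow fibre genes found of 8 summed to 4607, 16706, 8967 and 10370 TPM, highest in tendon 2. The 9 endothelial genes found of 10 summed to 275, 323, 434 and 409.9 TPM, highest in tendon 3. Tenocyte genes (7 of 8) summed to 15703, 17567, 9698 and 8051 TPM, lowest in tendon 4. Most of that sum came from FMOD and THBS4 (3002 and 4721 TPM in tendon 4). The tenocyte genes did not move together: 2 of 7 were highest in tendon 4, TNMD (158, 169, 31.7 and 187 TPM) and EGR2. Genes listed for adipose progenitors (5 of 7) summed to 127, 136, 154 and 177 TPM. No found marker of the fast, slow, macrophage, endothelial or tenocyte lists was at 0 in any tendon; in the progenitor list DLK1 was at 0 counts in tendon 1. The part of these cell types in the levels of LPL, GPD1, FABP4 and PPARG was not tested.

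**Figure D5:**
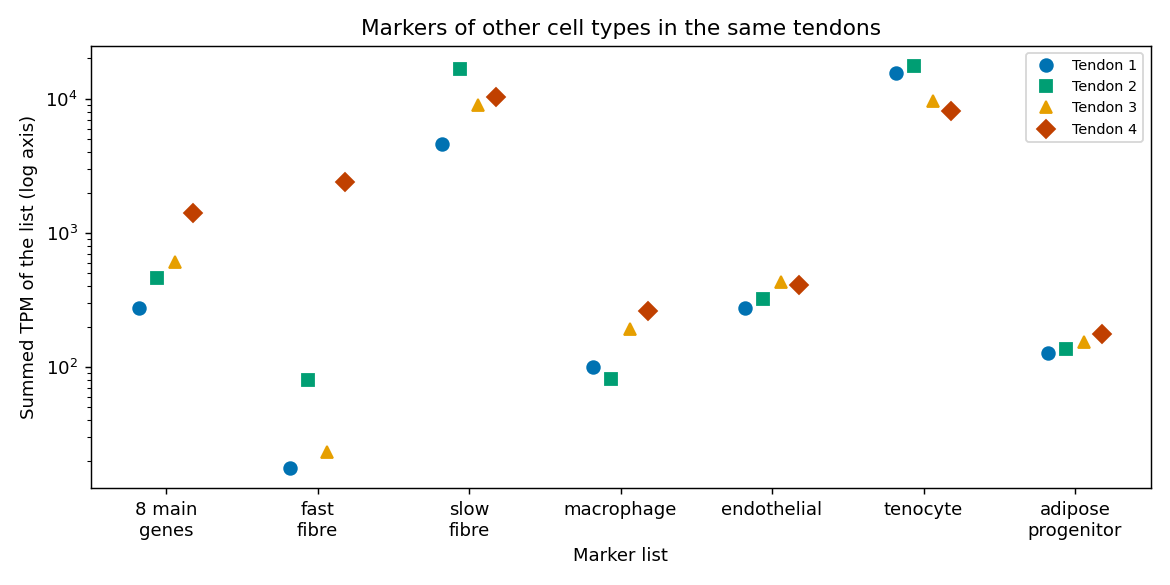
Summed TPM (log axis) of the 8 main genes and of 6 marker lists in tendons 1 to 4 (symbols). In tendon 4 the fast fibre sum is 2388 TPM against at most 80.6 TPM elsewhere, while the sum of the 8 main genes lies between 277 and 1398 TPM.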

How the data were processed

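Poly(A) RNA of 4 tendons was sequenced. The authors deposited estimated counts for each transcript with no scaling; kallisto 0.42.4, bcl2fastq, FastQC and build OryCun2.0 are named in the submitters' processing notes, without roles. For filters and strand use, nothing is given in the sources used here. Other deposited columns, per the file headers, gave symbol, Ensembl identifier, coordinates and transcript length. TPM were computed from counts and annotated lengths and summed per gene. Spread was the ratio of highest to lowest tendon and the SD of log2(TPM + 1), for genes whose mean was 1 TPM or more. Intervals are exact Poisson on rounded counts. Within-tendon ratios used the exact sign-flip permutation test with Benjamini-Hochberg adjustment over 5 pairs.

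Named genes were the 10 symbols, partner genes, up to 4 genes per list by mean TPM with those past 4-fold, and the 6 nearest profiles; values are printed for those that lead each list, and 1 gene is not reported here. RETN, ADIPOR2, UCP1, G0S2, EBF1, DLK1, FMOD, THBS4, TNMD and EGR2 were named where a list's account needed them. Members and lists were chosen with earlier results of these data known. Reference identifiers matched 0 table identifiers.

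Alternatives were TMM (edgeR 4.0.16) and DESeq2 1.42.0 size factors (R 4.3.3) on rounded counts, CPM by library total, different pseudocounts and filters, and leaving out tendons 1 by 1. On simulated data, 99% of 100 genes changed 8-fold in tendon 4 passed 4-fold, as did 5% of 100 changed 2-fold and 0.509% of 12586 unchanged genes. Among measured genes 5.01% passed 4-fold and 32.3% were highest in tendon 4, against 0.509% and 18.4% of the simulated unchanged genes. The simulated spread thus differed from the measured one, and these rates do not show how often unchanged genes pass 4-fold in real tendons. Python 3.11.15, numpy 2.4.6 and pandas 2.3.3 were used.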

Additional observations from a re-analysis of the deposited data

Results flagged for a closer look

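Of 90 values tested in TPM for a tendon standing apart from the other 3 (72 genes and 18 list sums), 7 passed Dixon's 95% critical ratio, and in each of the 7 the tendon apart was tendon 4, with the highest value. Among the 8 main genes these were GPD1 (ratio 0.903) and DGAT2 (0.890), a description only, since the main genes were chosen for their spread. Of the 74 values that hold no main gene (64 genes and 10 list sums), 5 passed, where chance at 1 in 20 gives about 3.7. Among other lipid genes those past it were SLC25A1 (0.928), PCK2 (0.918), THRSP (0.892) and ELOVL6 (0.879). SLC25A1, the citrate carrier gene, had 56.2, 58.01, 56.7 and 80.6 TPM in tendons 1 to 4, and PCK2, a mitochondrial enzyme gene, 10.8, 9.44, 11.6 and 36.1 TPM. The summed TPM of the fast fibre list had the ratio 0.973. CIDEC, LPL, FABP4, PPARG, LIPE and ADIPOQ did not pass, since their tendons were spread more evenly.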

How the results depend on the processing

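All 8 genes stayed highest in tendon 4, and 6 stayed at 4-fold or more, with TMM, with DESeq2 size factors and with library totals; these moved the median of all genes relative to TPM by up to 0.12, 0.14 and 0.11 (log2) in a tendon. A minimum mean of 10 TPM left out PPARG and LIPE. All 6 genes left were highest in tendon 4, and 5 of the 6 were at 4-fold or more. Leaving out each tendon in turn gave 1 to 6 genes past 4-fold, with 1 without tendon 4 and 4 without tendon 1; among lipid genes outside the 10 symbols, 3 to 7 passed. With tendons left out, the log2 SD ranged from 0.30 to 0.54 for ADIPOQ, 0.41 to 0.88 for LIPE, 0.50 to 1.20 for PPARG, 0.66 to 1.32 for FABP4, 0.85 to 1.58 for LPL, 0.58 to 1.82 for DGAT2, 0.76 to 2.16 for GPD1 and 1.34 to 2.32 for CIDEC. ADIPOQ had the lowest SD of the 8 with TMM, DESeq2 size factors and both other pseudocounts. For the 7 genes other than ADIPOQ the lowest value was the one without tendon 4. The log2 ratio of GPD1 to GPD1L ranged from -0.45 to 0.85 with tendons left out and was -1.69 in CPM. The share of the 8 genes was 0.0448% to 0.0822% with tendons left out, and 0.112% of counts. The alternatives for lipid genes outside the 10 symbols were chosen after seeing the data. The value of tendon 4 for CIDEC, PCK1 and THRSP is well counted, but their ratios are limited by 13, 6 and 4 counts in tendon 1. No paired analysis was possible because the 4 tendons form 1 group.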

Other observations

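Some lipid and fuel genes were highest in tendon 2 rather than in tendon 4. They were picked out after their values were seen. FITM1, a droplet-forming gene of skeletal muscle, had 19.9, 70.01, 49.9 and 56.8 TPM in tendons 1 to 4. SLC2A4, the insulin-responsive glucose transporter gene of muscle and fat, had 6.24, 21.03, 14.03 and 13.8 TPM. COX7A1, a respiratory chain subunit of muscle and brown fat, had 108, 250.4, 181 and 215 TPM. FABP3 had 37.9, 69.3, 60.02 and 24.01 TPM, and was lowest in tendon 4. GPAT3 was also highest in tendon 2. The slow fibre sum, 16706 TPM in tendon 2 and 4607 TPM in tendon 1, was highest and lowest in the same tendons as FITM1, SLC2A4, COX7A1 and GPAT3. GPD1L, GPAT4 and PPARA had the same highest and lowest tendons, over 1.42-, 1.31- and 1.50-fold ranges. How many of all genes shared this order was not counted. The relation of these genes to muscle left on the tendons was not tested.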
